A study of Mus musculus with 11 samples.

Results

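TAZ, the product of Wwtr1, and the vestigial-like proteins of the Vgll genes are cofactors of the TEAD transcription factors. Their transcripts were followed in mouse livers in which YAP, the paralogue of TAZ, was switched on for 3 or 7 days. The 5 genes were chosen by symbol, as Wwtr1, Vgll1, Vgll2, Vgll3 and Vgll4, and all 5 were found among the 20893 genes of the RNA-seq table. In all 11 livers of C57BL/6 mice were measured, as 4 controls, 4 livers after 3 days of induction and 3 livers after 7 days. Control mice had the genotype ROSA26-rtTA-IRES-EGFP with WT, and both induced groups had ROSA26-rtTA-IRES-EGFP with tetYAP. All mice ate food with doxycycline, the drug that makes rtTA switch on tet-driven genes, for 7 days in the controls and for 3 or 7 days in the induced groups. In the breeding scheme of the study the tetYAP transgene encoded YAP S127A, an active form, and the rtTA allele was opened by a Cre recombinase driven by the albumin promoter, so that induction was directed at cells of the hepatocyte lineage. The labels do not say whether the controls carried Cre, and ages were not given in the sources used here.

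YAP and TAZ do not bind DNA themselves. They are held in the cytoplasm and degraded after phosphorylation by the LATS kinases of the Hippo pathway, and otherwise enter the nucleus, bind TEAD factors and activate genes of growth and repair. The VGLL proteins use a short conserved TEAD-binding region, the Tondu motif, on a TEAD surface that overlaps that of YAP and TAZ. VGLL4 has a pair of such motifs and is known to compete with YAP for TEAD, and is known to restrain organ growth. VGLL1, VGLL2 and VGLL3 have a single motif. VGLL2 is known from skeletal muscle, and VGLL3 from cartilage, muscle and fibroblasts.

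The regions upstream of the members that were expressed in these livers are shown first, because TEAD factors bind the letters GGAATG or, on the other strand, CATTCC. The sequences are the 250 bases before the annotated start in RefSeq, build GRCm38.p6, written 5′ to 3′ on the strand of the gene, with GGAATG and CATTCC in capitals.
Wwtr1, chr3:57575911-57576160, minus strand: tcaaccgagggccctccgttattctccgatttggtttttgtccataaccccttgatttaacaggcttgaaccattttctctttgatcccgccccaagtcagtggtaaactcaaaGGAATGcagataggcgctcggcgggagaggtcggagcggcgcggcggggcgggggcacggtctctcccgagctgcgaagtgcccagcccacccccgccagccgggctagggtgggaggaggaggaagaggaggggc
Vgll3, chr16:65814939-65815188, plus strand: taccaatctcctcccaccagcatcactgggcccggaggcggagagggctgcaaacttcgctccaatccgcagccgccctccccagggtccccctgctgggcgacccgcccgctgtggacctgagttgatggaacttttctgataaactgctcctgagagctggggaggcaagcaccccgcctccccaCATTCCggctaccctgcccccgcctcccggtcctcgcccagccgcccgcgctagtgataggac
Vgll4, chr6:114969204-114969453, minus strand: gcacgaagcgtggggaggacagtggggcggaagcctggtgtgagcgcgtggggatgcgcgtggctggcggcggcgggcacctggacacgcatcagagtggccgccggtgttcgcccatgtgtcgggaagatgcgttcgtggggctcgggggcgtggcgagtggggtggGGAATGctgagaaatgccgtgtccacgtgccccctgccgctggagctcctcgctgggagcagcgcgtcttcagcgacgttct
The match began 136 bases before the start of Wwtr1 used here, 63 before that of Vgll3 and 82 before that of Vgll4. Wwtr1 has another annotated start, and the same match began 170 bases before it. The letters were also present upstream of Vgll1, 162 bases before its start, and of Yap1, 141 bases before its start, and they were not found in the window of Vgll2. They occurred in 4153 of 32851 promoter windows of this length (12.6%). A match is a description of the sequence and is no measurement of TEAD binding.

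In the build used by the authors, mm9, Wwtr1 lies on chromosome 3 from 57259571 to 57379832 on the minus strand. Vgll3 lies on chromosome 16 from 65815878 to 65863302 on the plus strand, and Vgll4 on chromosome 6 from 114810646 to 114920012 on the minus strand. Vgll1 is on chromosome X from 54341283 to 54359717 and Vgll2 on chromosome 10 from 51742308 to 51748277, both on the plus strand. In GENCODE M1 no exon of the 5 genes overlapped an exon of another gene. Of the genes set beside them below, Yap1 overlapped an exon of RP23-349N15.1 and Tead2 an exon of Cd37. The effect of these overlaps on their values was not tested. Reads were counted without strand information.

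Values are eRPKM, in which the exonic reads of a gene are divided by its length in kilobases and by the size of the library. They can be compared between genes of one liver because they are per length. The values also gave back how many reads each stands for. Control libraries held 1251481 to 5496258 reads on genes, 3-day libraries 2660497 to 3681646 and 7-day libraries 5312835 to 5942223, so the 7-day libraries were the deepest and control 4 the shallowest. Rank correlations between livers of a group (Spearman, over tested genes) ran from 0.922, between 3-day livers, to 0.986, between 7-day livers. By Xist and Ddx3y reads, 2 of 4 livers were female among controls, 2 of 4 at 3 days and 3 of 3 at 7 days.

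In all, 14244 genes that reached 0.5 eRPKM in 3 or more livers entered the test, and 3 of the 5 members were among them: Wwtr1, Vgll3 and Vgll4. The test was limma on log2(eRPKM + 0.5) with the 3 groups in 1 fit, and calls needed a p under 0.01 after Benjamini-Hochberg adjustment over all tested genes and a log2 fold change above 0.5 in either direction. Over all tested genes the median log2 fold change was 0.02 at 3 days, 0.26 at 7 days and 0.26 from 3 to 7 days, which is the background for a change of a member. With size factors the 7-day median was 0.03 and after quantile normalization it was -0.08.

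Wwtr1 was expressed in every liver and was higher at 7 days. Its level was 16.7, 16.8, 13.8 and 10.2 eRPKM in controls 1 to 4, and 22.1, 14.2, 20.8 and 13.8 in the 3-day livers. The 7-day livers had 30.2, 35.8 and 29.0. At 3 days 2 livers lay above all controls and the other two within their range, while at 7 days all 3 livers lay above every control and every 3-day liver. The group means were 14.4 (SD 3.11, n = 4), 17.8 (SD 4.35, n = 4) and 31.7 eRPKM (SD 3.62, n = 3), from 63 to 1049 reads per liver.

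At 7 days Wwtr1 had risen by a log2 fold change of 1.13 over control (SE 0.22, 95% interval 0.65 to 1.61; limma adjusted p = 0.00157), a ratio of means of 2.20. This was rank 2348 of 14244 genes ordered by their rise. The 3-day log2 fold change of Wwtr1 was 0.29 (SE 0.20, 95% interval -0.15 to 0.73; adjusted p = 0.596) and was not called. The step from 3 to 7 days, tested itself, was 0.84 (SE 0.22; adjusted p = 0.0109) and did not pass the threshold. It was called without control 4 (adjusted p = 0.00574), without 3-day liver 1 (adjusted p = 0.00833), without 3-day liver 3 (adjusted p = 0.00720), without the 2 shallowest controls (adjusted p = 0.00802), after quantile normalization (adjusted p = 0.00931), at the looser threshold of an adjusted p under 0.05 with any fold, and by limma-voom on the recovered reads (adjusted p = 0.00295), with 0.00295 to 0.0621 over all alternatives. The rise over control had the same direction under the other scalings, with 0.87 by size factors (adjusted p = 0.00421) and 0.93 after quantile normalization (adjusted p = 0.00220). Depth moved with it. With log2 depth as a covariate the change was 0.87 and was no longer called (adjusted p = 0.0306), and the same held without the 2 shallowest controls, a choice made after the data were seen (0.89, adjusted p = 0.0187), and without 7-day liver 2 (1.04, adjusted p = 0.0110). Among female livers alone the change was 1.02 (adjusted p = 0.00846), and over all alternatives the adjusted p was 0.000684 to 0.0306.

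Vgll3 had the largest change of the 3 tested members. It was near the limit of detection in controls and at 3 days, and at 7 days its range overlapped that of Yap1. Controls 1 to 4 had 0.872, 0.618, 0.353 and 1.59 eRPKM, from 12, 12, 3 and 7 reads. The 3-day livers had 1.17, 0.312, 0.462 and 0.308, from 11, 4, 6 and 4 reads. The 7-day livers had 19.6, 17.0 and 13.7, from 370, 358 and 257 reads. Controls and 3-day livers overlapped, and the lowest 7-day liver was far above the highest of the others.

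The means of Vgll3 in controls, 3-day and 7-day livers were 0.857 (SD 0.530, n = 4), 0.563 (SD 0.411, n = 4) and 16.8 eRPKM (SD 2.94, n = 3). Its log2 fold change over control at 7 days was 3.73 (SE 0.35, 95% interval 2.98 to 4.49; limma adjusted p = 9.69e-06), and the ratio of means was 19.6. This was rank 60 of 14244 genes ordered by their rise. At 3 days the value was -0.34 (SE 0.32; adjusted p = 0.705). The step from 3 to 7 days was 4.08 (SE 0.35; adjusted p = 8.57e-06), rank 16, with a ratio of means of 29.8. The added 0.5 eRPKM understates a change from so low a level, and with 0.1 the 7-day value was 4.29. The call at 7 days was kept under each alternative run, with log2 fold changes of 3.29 to 4.47, among them 4.14 when depth was a covariate and 4.13 among female livers.

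Vgll4 was expressed in every liver at a level between those of Wwtr1 and Vgll3 in controls. Its values were 7.88, 10.1, 7.43 and 6.23 eRPKM in controls, 4.47, 4.80, 9.80 and 5.89 at 3 days, and 9.18, 13.9 and 12.0 at 7 days. At 3 days 3 of 4 livers lay below all controls, and at 7 days 2 of 3 lay above them, so that each pair of groups overlapped. Means were 7.92 (SD 1.63, n = 4), 6.24 (SD 2.45, n = 4) and 11.7 eRPKM (SD 2.39, n = 3).

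No comparison of Vgll4 passed the test. Its log2 fold change was -0.36 at 3 days (SE 0.25, 95% interval -0.91 to 0.18; limma adjusted p = 0.585) and 0.54 at 7 days (SE 0.27, 95% interval -0.05 to 1.12; adjusted p = 0.136). The 7-day value was 0.28 with size factors and 0.03 after quantile normalization. Between 3 and 7 days it was 0.90 (SE 0.27; adjusted p = 0.0215). Without 3-day liver 3, the highest of its group, that step was 1.13 and was called (adjusted p = 0.00258). It was also called by limma-voom on the recovered reads (adjusted p = 0.00776), and over all alternatives the adjusted p was 0.00258 to 0.180.

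Vgll1 and Vgll2 did not reach the filter and had too few reads to be compared. Vgll1 had 1 read in control 1, 2 reads in control 2 and 3 reads in 7-day liver 2, which is 0.207, 0.293 and 0.407 eRPKM, and no read in the other livers. Vgll2 was above 0 only in 7-day liver 2, at 0.334 eRPKM. The smallest number of reads that gives a whole-number gene length for Vgll2 is 3, and the value could also stand for a multiple of 3. A group in which a gene had no read allows a level of up to 3 reads in all, which is 0.177 eRPKM for Vgll1 at 3 days, and 0.152 in controls and 0.145 at 3 days for Vgll2. These limits cover counting error only. The smallest exact permutation p of these genes was 0.429 (two-sided, 4 livers against 3 or 4). With reads in so few livers this p was close to fixed in advance, so nothing is concluded from it.

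**Figure D1:**
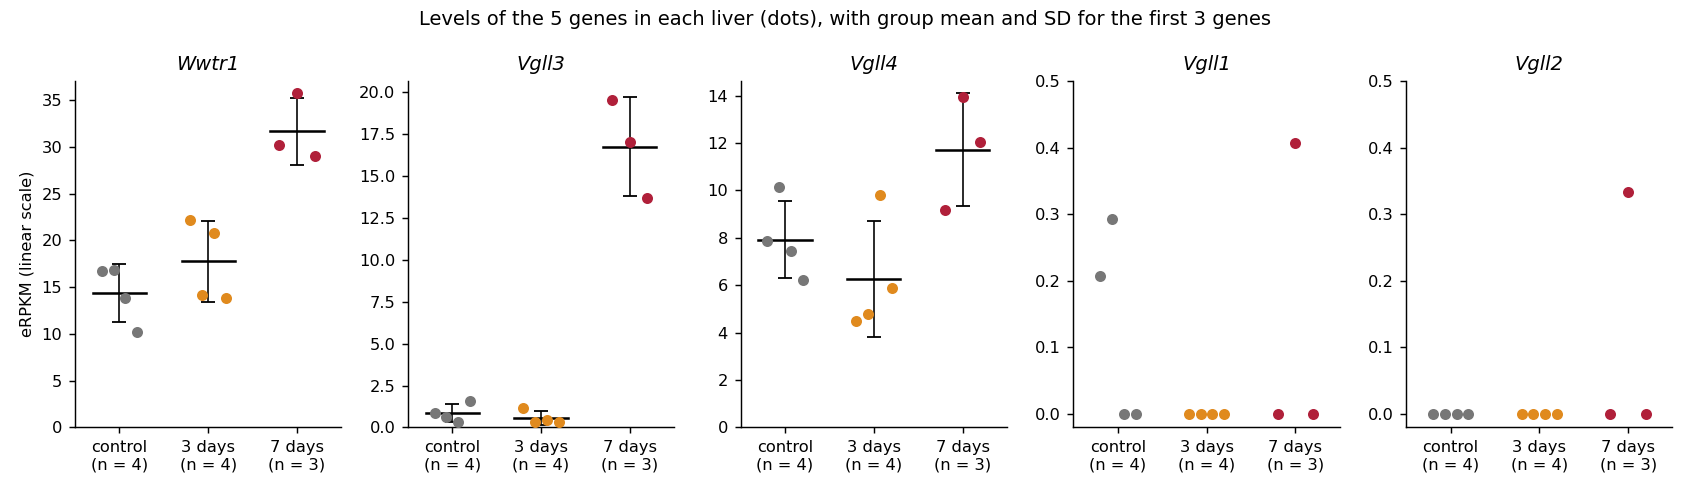
The level of each of the 5 genes in eRPKM (vertical axes, linear, a scale for each gene) is plotted by group, with a dot per liver and, for Wwtr1, Vgll3 and Vgll4, a line at the mean and bars of 1 SD. The 7-day livers of Wwtr1 (29.0 to 35.8) and Vgll3 (13.7 to 19.6) sit above all other livers, those of Vgll4 (9.18 to 13.9) overlap the others, and Vgll1 and Vgll2 stay below 0.5.

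At 7 days 2 of the 3 tested members had risen, Wwtr1 and Vgll3, and none had fallen. Over all tested genes 18.0% were called higher and 5.77% lower. From 3 to 7 days 1 of 3, Vgll3, was higher, against 14.0% of all tested genes higher and 5.31% lower. At 3 days 0 of 3 were called by limma, with 0.0421% of all tested genes called higher and none lower, and 0 of the 3 had an unadjusted p under 0.05, as 1718 of all tested genes did. All 3 livers at 7 days lay above all controls for Wwtr1 and Vgll3, which was so for 36.7% of tested genes, while 13.3% lay below. All 3 lay above all 3-day livers for the same pair, which was so for 31.3%, while 13.8% lay below. At 3 days no member lay on one side of all controls in all 4 livers, as 3.38% of tested genes did above and 2.25% below. The comparisons at 3 and 7 days share the 4 controls.

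Livers are mixtures, and in such samples a smaller number of cells of a type and less RNA per cell cannot be told apart. Marker genes of several cell types also changed at 7 days, some upward and some downward. Over all tested genes 18.0% were called higher and 5.77% lower, with a median log2 fold change of 0.26. Of 7 macrophage markers tested 6 were higher, with a median log2 fold change of 1.81, and their summed level was 187 to 383 eRPKM in control livers, 222 to 419 in 3-day livers and 712 to 812 in 7-day livers. Of 8 hepatocyte markers 3 were lower, Cyp2e1, Ttr and Tat, with a median of -0.88, and their sum went from 1560 to 4400 in controls to 1140 to 1278 at 7 days.

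Fewer genes were called in the lists of fibroblasts, stellate cells, endothelium and bile duct. Their counts stand beside 18.0% higher, 5.77% lower and a median of 0.26 over all tested genes. Of 8 markers of activated fibroblasts 1 was higher, Timp1, with a median of 0.25 and a summed level of 47.1 to 122 in controls and 54.7 to 80.7 at 7 days. Of 8 stellate cell markers 2 were lower, Reln and Rgs5, with a median of -0.49 and a sum of 104 to 206 in controls and 92.5 to 119 at 7 days. Of 8 endothelial markers 2 were higher, Lyve1 and Cdh5, with a median of 0.51 and sums of 151 to 269 and 259 to 285. Of 7 tested cholangiocyte markers 1 was higher, Krt7, with a median of 0.95 and sums of 38.5 to 49.7 and 62.8 to 113.

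The lymphocyte and muscle lists were low. Of all tested genes 18.0% were called higher at 7 days. Of 6 T cell markers 1 was higher, Cd4, with sums of 3.82 to 7.69 in controls and 5.65 to 10.3 at 7 days, and 0 of 4 B cell markers passed, with sums of 3.75 to 8.60 and 4.64 to 12.4. Of 6 skeletal muscle genes only 1 reached the filter and it was not called, with sums of 5.50 to 29.4 in controls and 5.14 to 8.25 at 7 days. The part of these cell types in the changes of Wwtr1 and Vgll3 was not tested.

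Wwtr1 and Yap1 encode paralogous coactivators, and the mean of Yap1 was the higher in controls, while that of Wwtr1 was the higher at 3 and at 7 days. Yap1 had means of 18.2 (SD 3.10, n = 4), 16.8 (SD 1.83, n = 4) and 18.4 eRPKM (SD 0.862, n = 3) in controls, at 3 and at 7 days, and was called in no comparison (limma adjusted p = 0.832 and 0.917 against control). The paper states that YAP had already reached its highest level at 3 days of induction, and the Yap1 values here showed no such rise. Whether reads of the transgene were counted on Yap1 was not tested. The ratio of Wwtr1 to Yap1 in a liver is unchanged by any single scaling factor of the library, though not by quantile normalization. It was 0.790, 0.867, 0.743 and 0.736 in controls, 1.42, 0.824, 1.08 and 0.906 at 3 days, and 1.61, 1.88 and 1.66 at 7 days. In these values Wwtr1 was thus below Yap1 in 4 of 4 controls, above it in 2 of 4 livers at 3 days and above it in 3 of 3 at 7 days. This does not compare Wwtr1 with all YAP transcripts of the induced livers.

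The mean ratio of Wwtr1 to Yap1 in the same order of groups was 0.784 (SD 0.0600, n = 4), 1.06 (SD 0.263, n = 4) and 1.72 (SD 0.144, n = 3). On the log2 scale the 7-day ratio was 1.13 above control (exact permutation p = 0.0286, two-sided and the smallest possible, and 0.0857 after Benjamini-Hochberg adjustment over the 9 ratio tests). At 3 days the difference was 0.40 (exact p = 0.0571), and from 3 to 7 days it was 0.73 (exact p = 0.0571) with no overlap between the groups.

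The TEAD factors, which both kinds of cofactor bind, are the other side of this balance. Tead1 had means of 6.41, 11.9 and 31.5 eRPKM and Tead4 of 0.311, 0.709 and 12.0 in controls, at 3 days and at 7 days, and these were called at 7 days, 2 of the 4 TEAD genes. The share called higher at 7 days over all tested genes was 18.0%. The level of Vgll4 relative to the sum of Tead1 to Tead4 was 0.765, 0.739, 0.508 and 0.832 in controls. It was 0.529, 0.284, 0.372 and 0.416 at 3 days and 0.196, 0.234 and 0.257 at 7 days. The 7-day livers lay below all others, and 3 of 4 livers at 3 days lay below all controls.

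The mean of this ratio was 0.711 (SD 0.141, n = 4), 0.400 (SD 0.102, n = 4) and 0.229 (SD 0.0304, n = 3). At 7 days it differed by -1.62 on the log2 scale from control (exact permutation p = 0.0286, 0.0857 over the 9 ratio tests). The difference was -0.84 at 3 days (exact p = 0.0571) and -0.78 from 3 to 7 days (exact p = 0.0571). Its denominator, the summed level of Tead1 to Tead4, was 7.49 to 14.6 eRPKM in control livers, 8.45 to 26.3 in 3-day livers and 46.8 to 59.5 in 7-day livers.

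Vgll4 relative to the sum of Yap1 and Wwtr1 did not separate the groups. Its means were 0.244 (SD 0.0316, n = 4), 0.180 (SD 0.0554, n = 4) and 0.234 (SD 0.0400, n = 3), and the 7-day livers differed from controls by -0.07 on the log2 scale (exact permutation p = 0.743). The denominator may leave out transcripts of the transgene, so the balance of Vgll4 with all YAP transcripts was not measured.

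**Figure D2:**
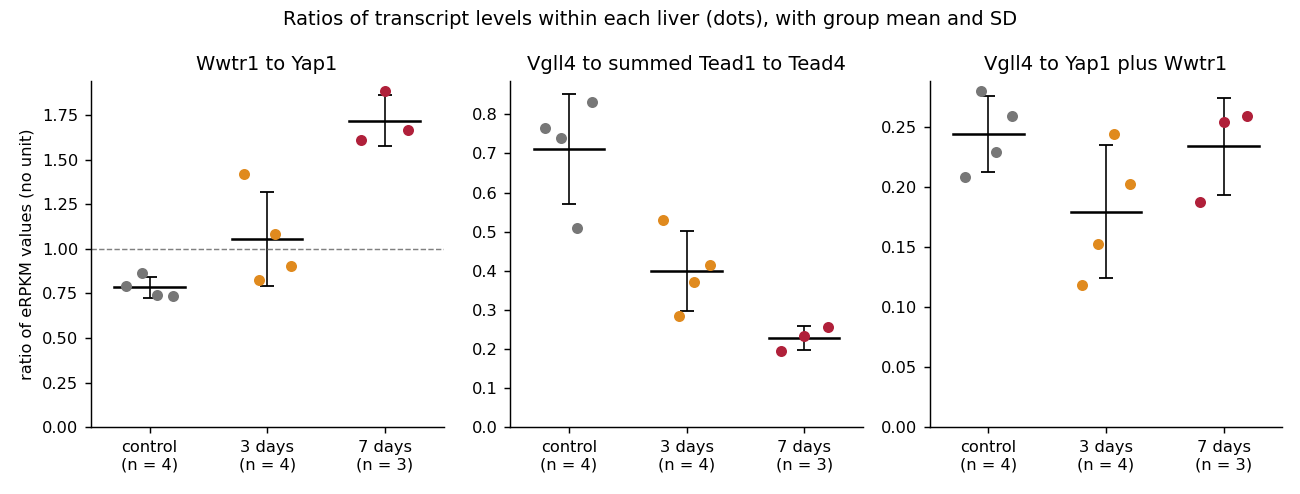
Ratios of eRPKM values within each liver (vertical axes, no unit, starting at 0) are shown by group, with a dot per liver, a line at the mean and bars of 1 SD. Whether Yap1 includes reads of the transgene was not tested. The ratio of Wwtr1 to Yap1 crosses 1, drawn dashed, between controls (0.736 to 0.867) and 7 days (1.61 to 1.88), Vgll4 to the summed TEAD genes is lowest at 7 days (0.196 to 0.257), and Vgll4 to Yap1 plus Wwtr1 overlaps between groups.

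The order of the levels differed between controls and 7 days, with the limit on Yap1 given above. In controls Yap1 and Wwtr1 were highest, with overlapping ranges, followed by Vgll4 and Tead1, which overlapped, then Tead3, and then Vgll3 and Tead2, which overlapped. At 7 days Wwtr1 and Tead1 were highest and overlapped. Yap1, Vgll3, Tead4 and Vgll4 came next, each overlapping its neighbour in that order, and Tead3 and Tead2 were below them. Vgll3 was below Vgll4 in 4 of 4 controls and above it in 3 of 3 livers at 7 days. Vgll4 was above Tead1 in 3 of 4 controls and in 0 of 3 livers at 7 days.

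**Figure D3:**
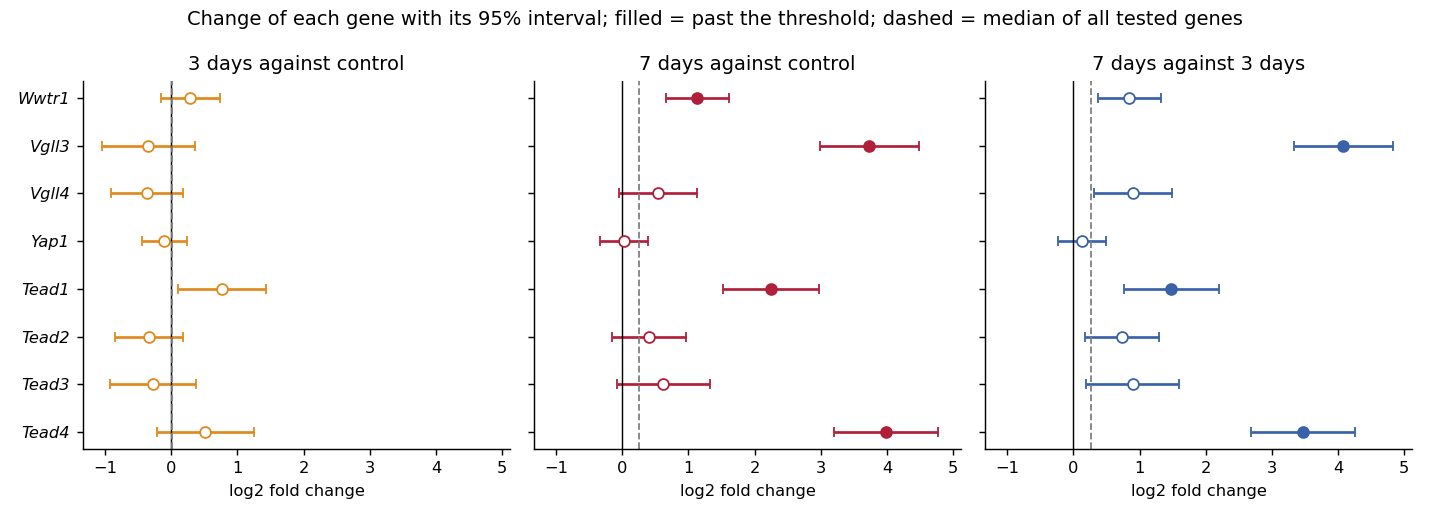
The log2 fold change of each tested member, of Yap1 and of the TEAD genes is plotted with its 95% interval for the 3 comparisons (horizontal axis), filled where the gene passed the threshold, with the median of all tested genes dashed (0.02, 0.26 and 0.26). Vgll3 (3.73) and Tead4 (3.98) stand farthest to the right at 7 days, Wwtr1 (1.13) is filled in that comparison alone, and Vgll4 and Yap1 are open in all 3.

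The genes that act on TAZ were examined as a list. Of 16 genes for the retention and turnover of TAZ, 5 were higher at 7 days and none lower, with a median log2 fold change of 0.27. Over all tested genes 18.0% were higher and the median was 0.26. The 5 were Lats2 (1.44, SE 0.20, limma adjusted p = 0.000142), a kinase that phosphorylates YAP and TAZ, Csnk1e (1.36, adjusted p = 0.00103) and Csnk1d (0.86, adjusted p = 0.00131), casein kinases of the step that marks TAZ for degradation, and the 14-3-3 genes Ywhah (1.33, adjusted p = 0.00140) and Ywhag (0.83, adjusted p = 0.00933). Between 3 and 7 days 3 of the 16 were higher, beside 14.0% of all tested genes. At 3 days 0 were called, beside 0.0421% of all tested genes called higher.

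Among 12 coregulators at TEAD sites 3 were higher at 7 days and none lower, with a median of 0.55, beside 18.0% higher and a median of 0.26 over all tested genes. A count of 3 of 12 is near that share. Ncoa3, a steroid receptor coactivator, rose by 1.12 (SE 0.23; limma adjusted p = 0.00198), and the corepressor genes Ctbp2 and Ctbp1 by 0.90 (adjusted p = 0.00395) and 0.65 (adjusted p = 0.00237). Between 3 and 7 days 3 of 12 were higher, beside 14.0% of all tested genes. At 3 days 0 were, beside 0.0421%. Of 10 tested genes for other DNA-binding partners of TAZ only Runx1, a RUNX factor of blood cells and epithelia, was higher at 7 days (1.49, SE 0.26; adjusted p = 0.000706), and the median of the 10 was 0.07. Runx1 was also the only 1 of the 10 called from 3 to 7 days, and 0 were called at 3 days, beside the same shares.

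**Figure D4:**
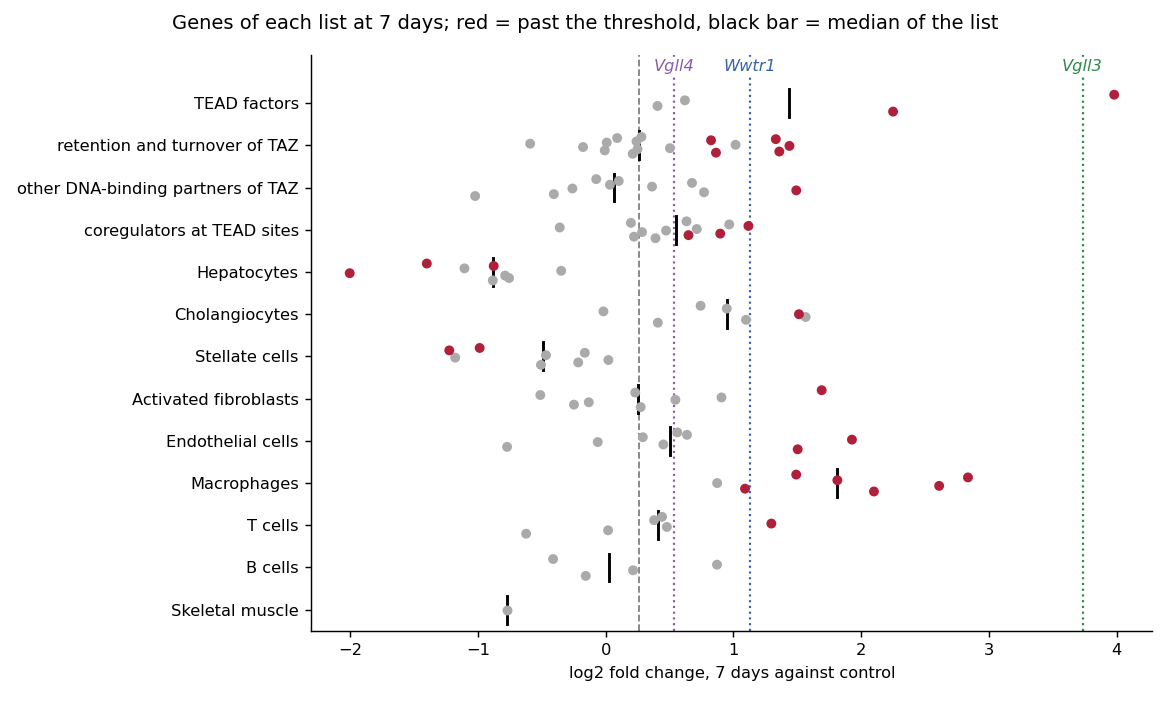
Each dot is a tested gene of a list, placed by its log2 fold change at 7 days against control (horizontal axis), red where it passed the threshold, with a black bar at the median of the list. Dotted lines mark Vgll4 (0.54), Wwtr1 (1.13) and Vgll3 (3.73) and the dashed line the median of all tested genes (0.26). The macrophage list lies furthest right of the cell type lists (median 1.81), the hepatocyte list furthest left (-0.88), and only Tead4 exceeds Vgll3.

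Genes whose pattern over the 11 livers was most like that of each member are given as a description. All livers and their depth are shared by the compared genes, and the groups alone give high correlations. For Wwtr1 the closest of 12569 genes with a mean of at least 1 eRPKM were Fam53c (Pearson r = 0.97), Gmds, Cnksr3, Rell1 and Cd2ap (r = 0.96). Fam53c had means of 7.29, 8.85 and 13.4 eRPKM over the 3 groups, and Cd2ap, an adaptor of the actin cytoskeleton, of 31.8, 38.2 and 72.8. With the group means removed the r of these 5 was 0.81 to 0.90.

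For Vgll3 the closest were Fam83b (r = 0.98), Anxa2, Psca, Cryab and Slc2a3 (r = 0.97). Anxa2, a membrane-binding annexin, had means of 7.21, 7.32 and 53.0 eRPKM, Cryab, a small heat shock protein, 3.47, 1.61 and 58.7, and Fam83b 0.212, 0.0693 and 14.3. With the group means removed their r was 0.36 to 0.64. The nearest genes of each member were picked by r over these same livers. Their r after removal depends on that choice and cannot be compared between members. The nearest genes of Vgll4 were Tle4 (r = 0.97), Cd27, Pde8a, Eps15l1 and Med15 (r = 0.95), with 0.91 to 0.96 after removal of group means. Of these 5, Tle4, a Groucho corepressor, had means of 12.0, 10.1 and 14.2 eRPKM, and none was called at 7 days, with adjusted p of 0.0370 for Med15 to 0.311 for Tle4.

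Between the members themselves, Pearson r over the same 11 livers on the log2 scale was 0.81 between Wwtr1 and Vgll3, 0.64 between Wwtr1 and Vgll4 and 0.63 between Vgll3 and Vgll4. With the group means removed these were 0.11, 0.47 and -0.40. Vgll3 had 3 to 12 reads per liver in controls and 4 to 11 at 3 days. Its values within these groups carry much counting error, so its r after removal cannot show where the likeness to Wwtr1 lay. Of the TEAD genes Vgll4 was nearest to Tead3 (0.85), and to Tead4 with the group means removed (0.82, and 0.71 for Tead3). Wwtr1 and Vgll3 were nearest to Tead4 (0.87 and 0.89), with 0.27 and -0.68 once the group means were removed. Tead4 had 0 to 8 reads per liver in controls and 1 to 16 at 3 days, so the same limit holds for its r.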

How the data were processed

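RNA of 11 whole mouse livers was measured by bulk RNA-seq (TruSeq kits v2). The authors masked low-quality bases, aligned reads to mm9 with TopHat2 2.0.8 and counted them with featureCounts 1.4.5-p1, per the labels and methods. The deposited eRPKM are a kind of RPKM made by the authors, reads on exons per kilobase scaled to the library, and 3 columns of the authors' own DESeq2 comparison were not used. The gene annotation was not given in the sources used here. The step of each gene was chosen so that its values were whole multiples. That 177553 values (100%) came out within 0.1 of a whole read follows in part from this choice. Of 18887 genes above 0 in 2 or more libraries, 99.7% had a whole-number length. The length equalled the summed exons of GENCODE M1 for 2651 of 20893 genes. The recovered reads gave the depth, the limits for genes without reads (3 reads) and an alternative by limma-voom.

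The fit covered 14244 genes that reached 0.5 eRPKM in 3 or more livers. It was made with limma 3.58.1 under R 4.3.3 on log2(eRPKM + 0.5), with a trended prior variance and without covariates. The call thresholds were an adjusted p under 0.01 and a log2 fold change above 0.5 in size. The step was tested on simulated data. Ratios and members below the filter were tested by exact two-sided permutation over 70 or 35 splits. The members and lists were chosen with earlier results of these data known. Named genes were the members, Yap1, the TEAD genes, for each tested member the 5 genes nearest by Pearson r, and called genes of the fixed lists, up to 6 a list. All list genes were found except Adgre1. The labels do not say that replicates with a shared number are paired, and correlations of same-numbered livers were -0.22 to 0.27, so no pairing was used. Nothing but the title numbers says that libraries came from separate mice, so p-values measure the spread between these samples. Alternatives were other pseudocounts, filters, scalings, covariates and fits, and each liver left out. Those without the 2 shallowest controls and in female livers only were added after the data were seen. Protein sequences were not used here. Python 3.11.15, numpy 2.4.6, pandas 2.3.3 and matplotlib 3.10.9 were used.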

Additional observations from a re-analysis of the deposited data

Results flagged for a closer look

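The change of Vgll3 differed between the times of induction. It was 4.08 higher on the log2 scale at 7 days than at 3 days (limma adjusted p = 8.57e-06), a test of the difference itself, with all 3 livers at 7 days above all 4 livers at 3 days. This difference was taken between the 7-day and 3-day livers directly. The level of the 4 controls does not enter it, though their spread enters the shared fit.

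Tead4 was listed at 0 in control 4. It had no read there, against 3 to 8 reads in controls 1 to 3, and the gap to the nearest control was 0.857 of the range, above Dixon's 95% critical value for 4 livers. Control 4 was the shallowest library, and no read there allows up to 0.748 eRPKM, above the 0.389 to 0.453 eRPKM of controls 1 to 3, so a lower level in control 4 was not detectable at this depth. Of 22 sets of 4 livers examined this was the only such case, and chance gives about 1 in 20.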

How the results depend on the processing

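The number of members called at 7 days, 2 as reported, was 1 with log2 depth as a covariate and 1 without the 2 shallowest controls, and 1 to 2 when each liver was left out. From 3 to 7 days it was 1 as reported, 2 after quantile normalization, 3 by limma-voom, 3 at an adjusted p under 0.05 with any fold, 2 without the 2 shallowest controls, and 1 to 3 when each liver was left out. At 3 days it was 0 under each alternative run. The cause was not tested.

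Over all genes, 6 were called at 3 days. The count was 0 without a filter, 12 with size factors, 0 with the 2 compared groups only, 0 without the trend, 1 by limma-voom, 10 with the suffix MF as a covariate, 1 with depth, 16 with Xist, 41 at an adjusted p under 0.05, 0 without the 2 shallowest controls, and 0 to 54 with each liver left out. At 7 days 3383 were called, with 1676 by the depth covariate, 5390 at an adjusted p under 0.05, 1985 without the 2 shallowest controls, 2128 in female livers and 2057 to 3684 with each liver left out. From 3 to 7 days 2753 were called, with 1679, 5085 and 1424 by the depth covariate, at an adjusted p under 0.05 and in female livers, and 1412 to 3683 with each liver left out. The split at 7 days was 2561 higher and 822 lower as reported, 1951 and 1254 with size factors, and 1857 and 1821 after quantile normalization. From 3 to 7 days it was 1997 and 756, 1515 and 1181, and 1436 and 1430.

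With the replicate number as a block 3 genes were called at 3 days, 2720 at 7 days and 1981 from 3 to 7 days, and no call of a member changed. The labels do not say that the numbers pair the samples, and 2 of 11 livers correlated best with a liver of their own number. With so few livers this count cannot show whether samples were paired.

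The change of Yap1 at 7 days, 0.03 as reported, turned to -0.24 with size factors, -0.32 after quantile normalization, -0.0070 by limma-voom, -0.056 with the replicate block, -0.21 with depth, -0.095 without control 4, -0.14 without the 2 shallowest controls and -0.045 in female livers, with no call, and it was -0.095 to 0.101 with each liver left out. From 3 to 7 days it was 0.13 as reported and -0.11, -0.13 and -0.046 with size factors, quantile normalization and depth. After quantile normalization the 7-day changes of Tead2 and Tead3 turned to -0.0093 and -0.050. The 7-day difference of Vgll4 to Yap1 plus Wwtr1 was -0.15 to 0.082 with each liver left out, with 0.082 without 7-day liver 1 and 0.00030 without control 2.

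Depth limits what can be said of low genes. A member with 3 to 12 reads per liver, as Vgll3 in controls, is known only roughly there, and Vgll1 and Vgll2 could not be compared.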
